A study of Homo sapiens with 4 samples.

Results

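The genes described here are the proteasome subunits, the proteins that switch the proteasome on or off, and the factors that assemble it. They were chosen by name, as protein-coding genes whose current NCBI symbol starts with PSMA to PSMG followed by a digit, and the rule used no measured value. Of the 23459 genes listed, 18816 are protein-coding and 50 matched. PSMC3IP, a cofactor of meiotic recombination, and PSME3IP1, a partner of the nuclear activator PSME3, matched by name only and are not parts of the proteasome, so they are described apart.

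The cells were hTERT RPE-1, a non-cancerous human epithelial line from the retinal pigment epithelium that was immortalized with telomerase. They were arrested by 48 h in medium with 0.1% FBS and then given 200 µM merbarone, a catalytic inhibitor of type II DNA topoisomerases, for 4 h or for 8 h, with 2 biological replicates at each time. Untreated cells were not analysed here, so every difference is between 8 h and 4 h of exposure, and time with the drug cannot be told apart from time in low serum. The values are RNA-Seq read counts per gene, of which 8064450 to 10324697 were available per library. Levels are given as CPM, the counts scaled to the depth of the library after TMM normalization, and differences as log2FC, the log2 of the level at 8 h over that at 4 h. Of the markers of retinal pigment epithelium, RPE65, RLBP1, BEST1, TTR and TYR were below a CPM of 1 in all 4 libraries, whereas MITF lay between 75.5 and 92.5 CPM OTX2 between 15.9 and 20.6 CPM and PMEL between 0.662 and 1.56 CPM. The leukocyte marker PTPRC and the endothelial markers PECAM1 and CDH5 were below a CPM of 1 as well, and the epithelial keratins KRT8 and KRT18 were at 245 CPM or more in every library. Between the times KRT18 fell (log2FC -0.51, adjusted p = 3.72e-05) and CD68, a lysosomal leukocyte marker at 53.8 to 75.04 CPM, rose (log2FC 0.39, adjusted p = 0.00298), while KRT8 had a log2FC of 0.03. Their part in the results was not tested.

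The proteasome degrades proteins that carry a ubiquitin chain. Its 20S core is a barrel of alpha and beta rings, in which the beta subunits PSMB5, PSMB6 and PSMB7 cut the substrate, and its 19S cap holds ubiquitin receptors, a deubiquitinase and a ring of ATPases that unfolds the substrate. Dedicated chaperones build the rings and leave the finished particle, and in human cells the transcription factor NFE2L1 raises the subunit genes together when proteasome activity is low, through the antioxidant response element (ARE) in their promoters.

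Most subunits of the particle changed little between 4 h and 8 h. The largest changes among the proteasome genes were in the assembly chaperones PSMD5, PSMG1 and PSMG4. Genes needed a CPM over 1 in 2 or more libraries to be tested, which 47 of the 50 and 12559 of all genes had. At an adjusted p below 0.05, 4 were higher at 8 h (PSMB7, PSMD3, PSMD8 and PSMF1) and 7 were lower (PSMC3IP, PSMD5, PSMG1, PSMG4, PSMG3, PSME3 and PSMD1). These 11 are 23.4% of the genes tested here, whereas 38.8% of all retained genes were called, 19.9% as higher and 18.8% as lower. The chaperones PSMG2, PSMD9 and PSMD10 were not called. Neither was POMP (log2FC -0.20, adjusted p = 0.309), a chaperone that the name rule leaves out. None of the 47 passed the thresholds of the study, which also ask for an absolute log2FC above 1, and no log2FC of the 47 reached that size. The study used these thresholds with Limma-Voom and against untreated samples. Here they are applied to edgeR and 8 h against 4 h, so the shares cannot be set beside its gene numbers. In all retained genes 5.33% passed both thresholds, 1.45% as higher and 3.88% as lower.

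The size of the changes was small as well. An absolute log2FC below 0.25 was found for 37 of 47 (78.7%), against 45.2% of all retained genes, and one above 0.5 for 4 of 47 (8.51%), against 26.1%. These genes are also better measured than most, with a median of the mean log2-CPM of 6.23 against 4.91 and a median standard error of the log2FC of 0.093 against 0.127. Their median log2FC was -0.07, close to the -0.0024 of all retained genes, and it was -0.03 without the 2 name-only matches. The 2 libraries of one time lay wholly above those of the other for 15 genes at 8 h and for 17 genes at 4 h, and the times overlapped for 15. By the same count 69.7% of all retained genes did not overlap.

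**Figure D1:**
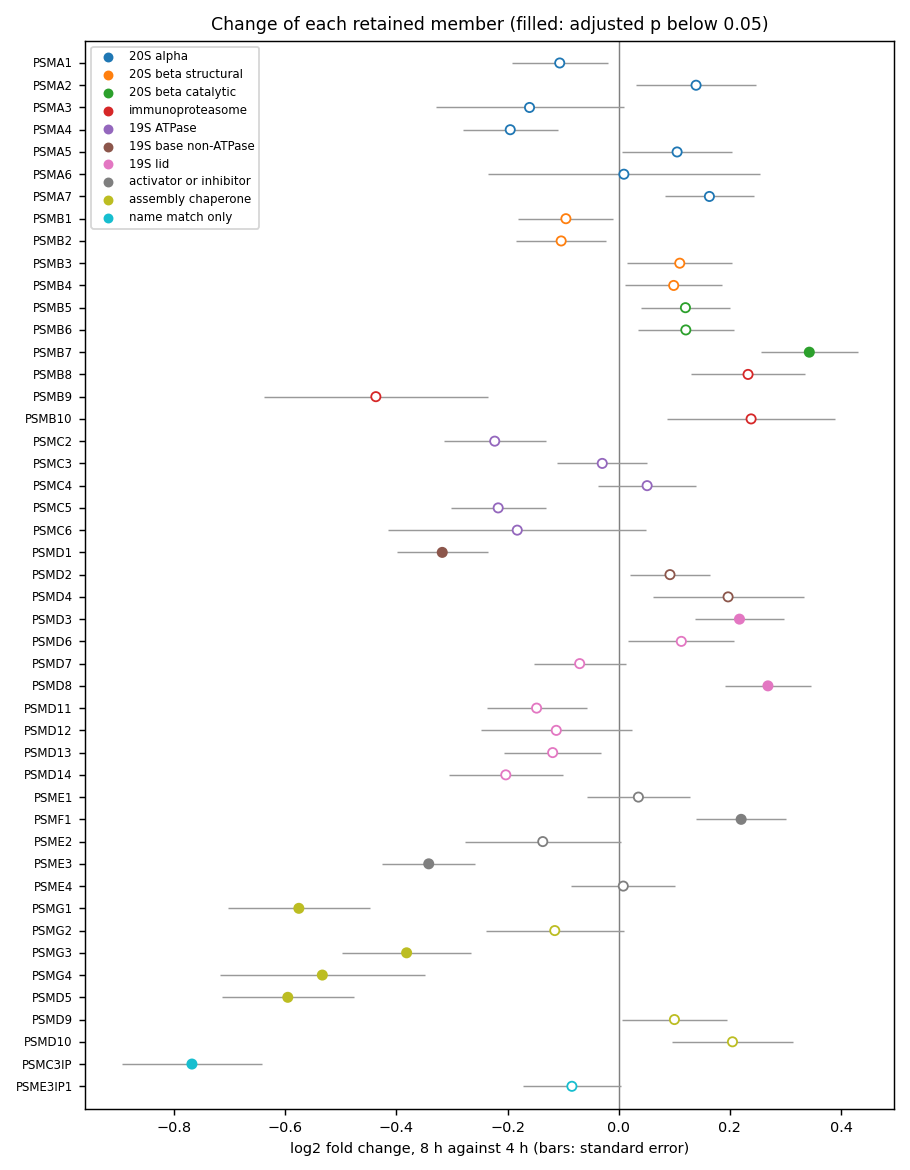
Log2FC of 8 h against 4 h for the 47 retained genes, grouped and coloured by class, with bars of 1 standard error on each side and filled points for an adjusted p below 0.05. Most points lie between -0.25 and 0.25, and PSMG1, PSMG4, PSMD5 and the name-only match PSMC3IP lie below -0.5.

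One library takes part in this picture. Replicate 2 at 8 h was below replicate 1 at 8 h for 35 of 47 genes (74.5%), against 50.5% of all retained genes. Set against the mean of the 4 h libraries, the median over the 47 genes was -0.0002 in replicate 1 at 8 h and -0.07 in replicate 2 at 8 h. Without replicate 2 at 8 h the median log2FC was -0.0014, without replicate 1 at 8 h it was -0.07, and without replicate 1 or replicate 2 at 4 h it was -0.03 in both cases. It was also the shallowest library, with 8064450 counts, and the part of depth in the difference was not tested. RNA from the culture was measured as a whole, so fewer cells that express a gene and less RNA per cell cannot be told apart.

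**Figure D2:**
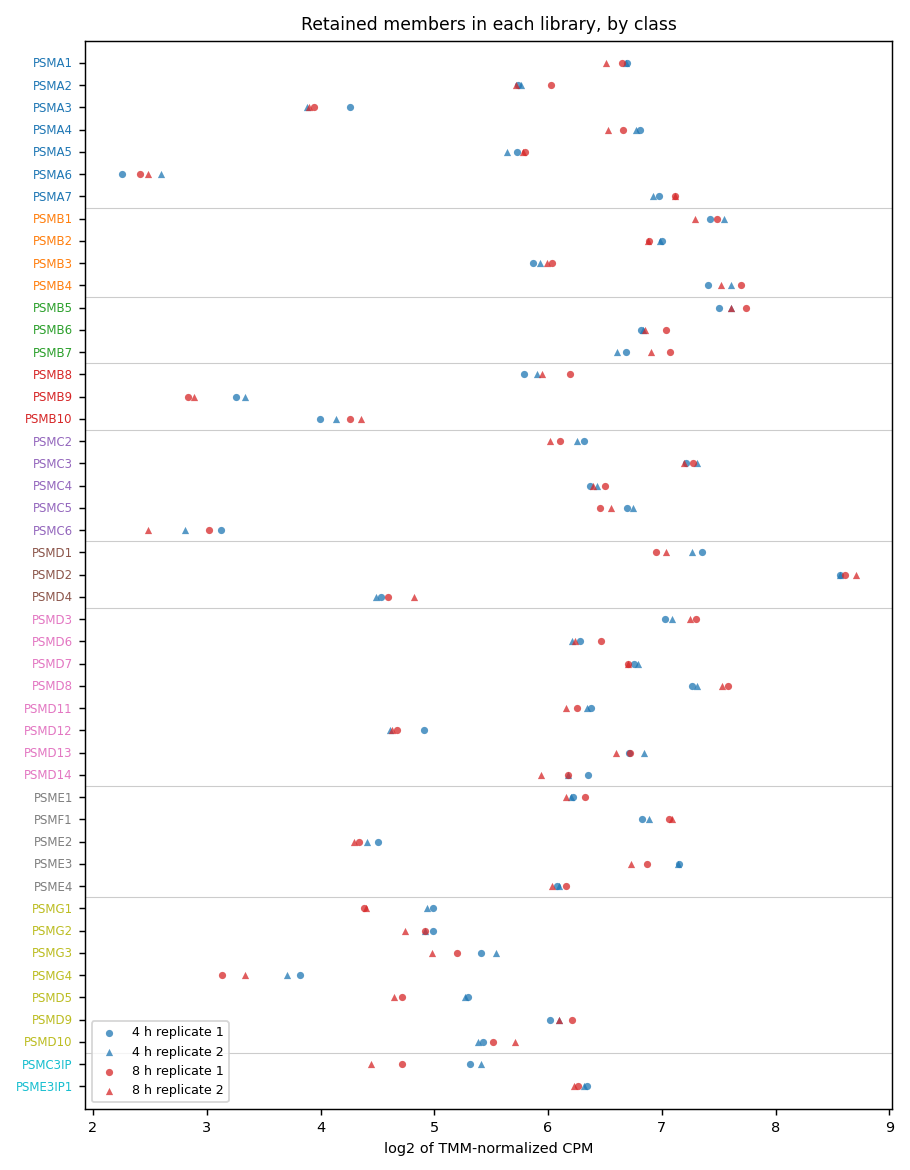
Level of each retained gene in each of the 4 libraries, as log2 of the TMM-normalized CPM, with circles for replicate 1, triangles for replicate 2, blue for 4 h and red for 8 h. For PSMG1, PSMD5 and PSMC3IP the red points lie left of the blue points with a gap wider than the spread within a time.

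The promoters of PSMD5 and PSMG1, which had the lowest log2FCs of the proteasome genes, both hold the core of the ARE, spelled TGACNNNGC. The promoter of PSMG4, with the next lowest log2FC (-0.53), holds no core, and neither does that of the name-only match PSMC3IP (-0.77). For PSMG3, which also fell, no promoter was available. The promoters of PSMD5 and PSMG1 are shown here beside some, not all, of those with a core from genes that rose or did not pass the test. This element is the one through which NFE2L1 is known to act on proteasome genes. The promoter sequences are those of RefSeq (GRCh38.p14, 250 bases before to 50 after the gene start), available for 44 of the 50 genes, and they were placed on GRCh37 by exact match. For the 10 of these genes with several starts, the first one listed was used, and likewise for all other genes. Each line gives 33 bases with their position on GRCh37, read 5′ to 3′ in the direction of the gene, which is the minus strand of the genome for PSMD5, PSMG1 and PSME4 and the plus strand for the others. Capitals mark the core, which in PSME4 lies on the strand opposite to the gene and is printed there as its reverse complement.

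PSMD5, chr9:123605314-123605346: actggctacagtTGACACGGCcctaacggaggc

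PSMG1, chr21:40555540-40555572: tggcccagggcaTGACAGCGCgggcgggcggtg

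PSMD9, chr12:122326582-122326614: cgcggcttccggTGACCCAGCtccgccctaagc

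PSMD3, chr17:38137011-38137043: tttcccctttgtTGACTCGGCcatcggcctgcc

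PSMB3, chr17:36908878-36908910: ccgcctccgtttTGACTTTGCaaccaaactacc

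PSME4, chr2:54198144-54198176: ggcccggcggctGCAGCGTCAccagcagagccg

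Searched on both strands, the core was present in 13 of the 44 promoters (29.5%) and in 14.3% of 15843 promoters of protein-coding genes, 1 for each gene. By class it was present in 4 of 6 chaperone promoters, 3 of 5 activator or inhibitor promoters and 0 of 7 promoters of 20S alpha subunits. Genes with and without the core were called in both directions. The median log2FC was -0.11 for the 13 retained genes with a core, of which 1 was higher and 3 were lower, and -0.08 for the 28 without, of which 2 were higher and 3 were lower. Of the genes printed above, PSMD5 and PSMG1 fell, PSMD3 rose, and PSMD9, PSMB3 and PSME4 did not pass the test. A core was also present but is not printed for PSMD1, which fell (log2FC -0.32). The same holds for PSMG2, PSMB9, PSMD12, PSME1, PSME2 and PSMC4, which did not pass the test. The CCAAT box, to which NF-Y binds, was present in 21 of 44 (47.7%), against 36.4% of all promoters, and the GC box GGGCGG, to which Sp1 binds, in 30 of 44 (68.2%), against 58.5% of all promoters and 71.4% of those of retained genes. Of the retained genes, the 20 with a CCAAT box had 2 higher, 3 lower and a median log2FC of -0.08, and the 21 without had 1 higher, 3 lower and a median of -0.11. The 28 with a GC box had 0 higher, 4 lower and a median of -0.11, and the 13 without had 3 higher, 2 lower and a median of 0.11. These splits were not tested. A match of these letters is a description of the sequence and not a bound site.

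The assembly chaperones were the class with the lowest median log2FC among the parts and factors of the proteasome. Of 7 retained, 4 fell, 0 rose and 3 did not pass the test, where 18.8% of all retained genes were called lower. The count of 4 was 2 with DESeq2 and 3 with the trend with mean log2-CPM corrected. It was 2 in a test against an absolute log2FC of 0.2. The median log2FC of the class was -0.38. This median was negative under every alternative, between -0.49 with library size alone and -0.28 without replicate 2 at 8 h. The PSMG genes encode the chaperones of the 20S core, where PSMG1 pairs with PSMG2 and PSMG3 with PSMG4 to start the alpha ring. All 4 had a log2FC below 0, as had 6309 of the 12559 retained genes. Of the 4, 3 passed the test, and 1 passed with DESeq2.

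PSMG1 was at 31.8 and 30.6 CPM at 4 h and at 20.8 and 21.1 CPM at 8 h. Its log2FC was -0.58 (SE 0.128, adjusted p = 0.00147). Both 8 h libraries lay well below both 4 h libraries. PSMG2, its partner, was at 31.6 and 30.3 CPM at 4 h and at 30.3 and 26.7 CPM at 8 h, and its log2FC of -0.12 (SE 0.124, adjusted p = 0.49) did not pass the test. The times overlapped for PSMG2, and the difference between the partners was not tested.

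PSMG3, the median of its class, was at 42.6 and 46.7 CPM at 4 h and at 36.7 and 31.6 CPM at 8 h, a log2FC of -0.38 (SE 0.116, adjusted p = 0.0134). The call was lost with DESeq2 (adjusted p = 0.0638), without replicate 2 at 4 h (0.144) and without replicate 2 at 8 h (0.0813). PSMG4 was at 14.1 and 13.1 CPM at 4 h and at 8.75 and 10.1 CPM at 8 h, a log2FC of -0.53 (SE 0.185, adjusted p = 0.0278). The times did not overlap for either gene. PSMG4 rests on only 78 to 151 counts per library, and it passed the test neither with DESeq2 (adjusted p = 0.133), nor with the trend with mean log2-CPM corrected (0.0932), nor without replicate 1 at 4 h (0.162), replicate 2 at 4 h (0.0832) or replicate 1 at 8 h (0.130).

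The other 3 chaperones hold the ATPases of the 19S base while it forms. PSMD5, which binds the ATPase PSMC2, was at 39.2 and 38.5 CPM at 4 h and at 26.4 and 25.01 CPM at 8 h. Its log2FC was -0.60 (SE 0.118, adjusted p = 0.000557), the strongest fall among the proteasome genes, with a wide gap between the times. PSMD9 and PSMD10, the chaperones also known as p27 and gankyrin, had a log2FC of 0.10 (adjusted p = 0.422) and 0.20 (adjusted p = 0.143), so the fall was not shared by the whole 19S set. The TMM-normalized CPM of the 7 chaperones summed to 267 and 269 at 4 h and to 243 and 235 at 8 h. The sum of the 16 retained 19S subunits stayed between 1742 and 1770 in all 4 libraries. That sum hides changes in both directions, since 2 of the 16 rose and 1 fell.

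Several of the lower genes share genomic ground with another gene, and whether the counting used the strand is not given in the sources used here. Counts of such partner genes are raw, here and below. The 8 h libraries held 9669035 and 8064450 counts in total and the 4 h libraries 10324697 and 10184486. PSMD5 overlaps CUTALP on the opposite strand, with 106 and 103 counts at 4 h and 66 and 53 at 8 h. PSMG3 overlaps PSMG3-AS1, with 79 and 111 counts at 4 h and 40 and 38 at 8 h, and PSMG4 overlaps TUBB2B and SLC22A23, with 22 to 45 counts each per library. The partner genes of PSMD5 and PSMG3 thus had fewer counts at 8 h as well, and their part in the result was not tested. PSMG1 (chr21:40546695-40555414 on GRCh37) overlaps no other listed gene.

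In the 20S core, 14 of 15 subunits were retained, 1 of them rose, none fell, and 13 did not pass the test. The median log2FC was 0.10, against -0.0024 for all retained genes. With library size alone it was -0.004, but that scaling also moved the median of all retained genes, to -0.108. With the trend with mean log2-CPM corrected it was 0.008, against 0.004 for all retained genes. No direction was given to the core as a whole, and none was tested. The TMM-normalized CPM of the core subunits summed to 1397 and 1434 at 4 h and to 1531 and 1401 at 8 h, and the times overlapped.

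The catalytic subunits hold the 3 active sites. PSMB7, the trypsin-like site, was at 103 and 97.5 CPM at 4 h and at 134 and 120 CPM at 8 h, a log2FC of 0.34 (SE 0.087, adjusted p = 0.00395). This was the strongest rise among the 47 genes, with both 8 h libraries above both 4 h libraries, and the call was lost without replicate 2 at 4 h (adjusted p = 0.0689). PSMB5, the chymotrypsin-like site, was at 181 and 195 CPM at 4 h and at 213 and 195 CPM at 8 h, with a log2FC of 0.12 (95% interval -0.05 to 0.29, adjusted p = 0.252).

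PSMB6, the caspase-like site and the median of its class, was at 113 and 114 CPM at 4 h and at 131 and 115 CPM at 8 h, with a log2FC of 0.12 (95% interval -0.06 to 0.30, adjusted p = 0.284). For both PSMB5 and PSMB6, replicate 2 at 8 h lay just above the higher 4 h library, and replicate 1 at 8 h was the highest library. The log2FC was above 0 for all 3 catalytic subunits under every alternative, whereas 1 of the 3 passed the test.

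The alpha subunits, which gate the barrel, gave 0 calls among 7 with edgeR in the main setting, and 1, PSMA4, at an unadjusted p below 0.05. Their log2FC ran from -0.20 in PSMA4 (adjusted p = 0.0785) to 0.16 in PSMA7 (adjusted p = 0.116), with 4 above 0 and 3 below. PSMA6 had the median of this class, at 4.77 and 6.05 CPM at 4 h and 5.33 and 5.57 CPM at 8 h, with a log2FC of 0.01 (95% interval -0.50 to 0.52). The structural beta subunits, which close the inner rings, also gave 0 calls among 4, adjusted or not. PSMB1 and PSMB2 had log2FCs of -0.10 and -0.10, and PSMB3 and PSMB4 had log2FCs of 0.11 and 0.10. In the middle of the class, PSMB1 was at 172 and 187 CPM at 4 h and at 179 and 156 CPM at 8 h, and PSMB4 at 170 and 195 CPM at 4 h and at 207 and 184 CPM at 8 h. The times overlapped for both, and the 95% interval of each of the 4 log2FCs included 0. Limma-Voom and DESeq2 also gave 0 calls in the alpha and in the structural beta class. Other settings that kept all 4 libraries did give calls. PSMA4 and PSMB2 were called lower with library size alone (adjusted p = 0.00909 and 0.047) and with the trend corrected (0.0112 and 0.0494). PSMA4 was also called lower with the replicate block (adjusted p = 0.0458). Leaving out a library moved PSMA2 in both directions, to a log2FC of -0.03 without replicate 1 at 8 h and 0.28 without replicate 2 at 8 h.

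The immunoproteasome subunits replace the catalytic ones in cells exposed to interferon and favour the cutting of antigen peptides. PSMB8, which takes the place of PSMB5, was at 55.1 and 59.7 CPM at 4 h and at 73.0 and 61.6 CPM at 8 h (log2FC 0.23, adjusted p = 0.0825). PSMB10, which takes the place of PSMB7, was at 15.9 and 17.6 CPM at 4 h and at 19.1 and 20.5 CPM at 8 h (log2FC 0.24, adjusted p = 0.224). For both, the 8 h libraries were above the 4 h libraries without passing the test.

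PSMB9, which takes the place of PSMB6, went the other way, at 9.55 and 10.1 CPM at 4 h and at 7.15 and 7.39 CPM at 8 h (log2FC -0.44, adjusted p = 0.0939). It rests on 57 to 107 counts per library and shares its locus with PSMB8, TAP1 and, on the same strand, PSMB8-AS1, which had 76 and 67 counts at 4 h and 38 and 26 at 8 h. None of the 3 retained immunoproteasome subunits passed the test with edgeR in the main setting, and 2, PSMB8 and PSMB9, had an unadjusted p below 0.05. Among settings that kept all 4 libraries, 1 of the 3 was called lower with library size alone and 1 was called higher with the replicate block. PSMB11, the thymus-specific subunit, and PSMA8, the testis-specific alpha subunit, had 0 counts in every library, which allows at most 0.291 to 0.372 CPM.

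In the 19S cap, 16 of 17 subunits were retained, 2 rose, 1 fell and 13 did not pass the test. The median log2FC was -0.09, with 6 above 0 and 10 below. The ATPases, which unfold the substrate, gave 0 calls among 5 with edgeR in the main setting, and 2 at an unadjusted p below 0.05. PSMC5 (log2FC -0.22, adjusted p = 0.0512) and PSMC2 (log2FC -0.22, adjusted p = 0.0607) lay just outside the threshold, and for both the 8 h libraries were below the 4 h libraries. Among settings that kept all 4 libraries, 2 ATPases were called lower with library size alone, the trend corrected or the replicate block. With a CPM above 2, 1 was called lower. PSMC6, the median of the class, was at 8.71 and 6.998 CPM at 4 h and at 8.11 and 5.57 CPM at 8 h (log2FC -0.18, adjusted p = 0.563), with the times overlapping.

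Among the other subunits of the base, PSMD1, a scaffold that docks ubiquitin receptors, was at 163 and 154 CPM at 4 h and at 123 and 131 CPM at 8 h. Its log2FC was -0.32 (SE 0.082, adjusted p = 0.00443), and the call was lost without replicate 1 at 4 h (adjusted p = 0.0732). The times did not overlap. PSMD2, the second scaffold and the median of this class, had the highest CPM of the 47 genes, at 379 and 380 at 4 h and 392 and 417 at 8 h (log2FC 0.09, adjusted p = 0.334). PSMD4, a ubiquitin receptor, had a log2FC of 0.20 (adjusted p = 0.266).

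In the lid, which removes the ubiquitin chain, 2 of 8 subunits rose. PSMD8 was at 154 and 159 CPM at 4 h and at 191 and 185 CPM at 8 h, a log2FC of 0.27 (SE 0.078, adjusted p = 0.0102). PSMD3 was at 130 and 136 CPM at 4 h and at 157 and 152 CPM at 8 h, a log2FC of 0.22 (SE 0.080, adjusted p = 0.0377). Both were separated by time, but both calls depended on the processing.

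PSMD8 lost its call without replicate 1 at 4 h (adjusted p = 0.124), without replicate 2 at 4 h (0.0587), with library size alone (0.109) and with the trend with mean log2-CPM corrected (0.135). PSMD3 lost it without replicate 1 at 4 h (0.259), replicate 2 at 4 h (0.112) or replicate 1 at 8 h (0.0989), with DESeq2 (0.101), with library size alone (0.293) and with the trend corrected (0.318). The other 6 lid subunits had log2FCs from -0.20 in PSMD14, the deubiquitinase, to 0.11 in PSMD6. Of the 8 lid subunits, 2 were called lower with library size alone and 1 with the trend corrected. The middle of the class lay between PSMD12 (30.0, 24.4, 25.5 and 24.8 CPM, in the order of replicates 1 and 2 at 4 h and at 8 h) and PSMD7 (108, 111, 104 and 104 CPM).

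The proteins that cap the core in place of the 19S particle, or block it, were called once in each direction. PSME3, the activator of the nuclear proteasome, was at 142 and 141 CPM at 4 h and at 117 and 106 CPM at 8 h, a log2FC of -0.34 (SE 0.083, adjusted p = 0.00297). Both 8 h libraries were lower, and PSME3 passed the test in all 12 alternatives that tested against a log2FC of 0. It did not pass with glmTreat, which tests against an absolute log2FC of 0.2. PSME3 overlaps BECN1 on the opposite strand. In raw counts, not scaled to depth, BECN1 had 900 and 922 at 4 h and 862 and 693 at 8 h.

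PSMF1, the inhibitor PI31, was at 113 and 118 CPM at 4 h and at 134 and 136 CPM at 8 h, a log2FC of 0.22 (SE 0.081, adjusted p = 0.038). The times did not overlap, but the call was lost without replicate 1 at 4 h (adjusted p = 0.260), replicate 2 at 4 h (0.110) or replicate 2 at 8 h (0.0759), with DESeq2 (0.109), with library size alone (0.286) and with the trend corrected (0.294). PSME4, which activates proteasomes on acetylated histones and is the median of this class, was at 67.6 and 68.6 CPM at 4 h and at 71.2 and 65.6 CPM at 8 h (log2FC 0.01, 95% interval -0.19 to 0.20). PSME1 and PSME2, the interferon-induced activator, had log2FCs of 0.04 and -0.14.

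Of the 2 name-only matches, PSMC3IP was at 39.9 and 42.5 CPM at 4 h and at 26.4 and 21.8 CPM at 8 h, a log2FC of -0.77 (SE 0.125, adjusted p = 8.68e-05). It was the largest change of the 47 genes and did not overlap between the times. PSMC3IP lies against MLX on the opposite strand. In raw counts, not scaled to depth, MLX had 465 and 528 at 4 h and 497 and 344 at 8 h. PSME3IP1 was at 81.3 and 79.5 CPM at 4 h and at 76.8 and 74.8 CPM at 8 h (log2FC -0.08, adjusted p = 0.477).

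**Figure D3:**
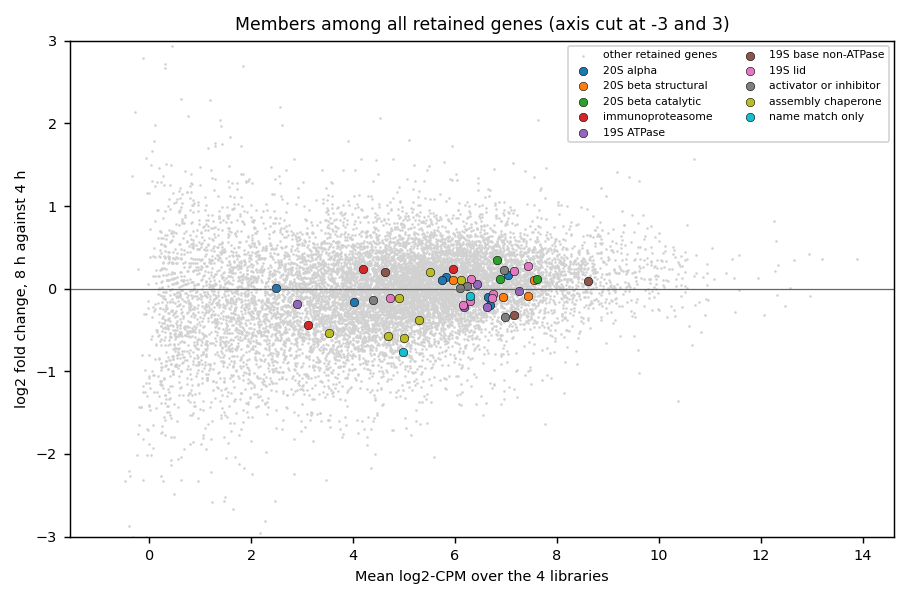
Log2FC of 8 h against 4 h plotted against the mean log2-CPM over the 4 libraries for all 12559 retained genes (grey) and the 47 genes described here (coloured by class), with the y axis limited to -3 to 3, which leaves out 6 genes. The coloured points lie between -0.77 and 0.34, with PSMC3IP, PSMD5 and PSMG1 the lowest of them.

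The level of a gene within the particle was compared per kilobase of its annotated canonical transcript, since longer transcripts give more reads. Over the 14 retained core subunits, which the particle holds in equal numbers, the mean CPM per kilobase ran from 5.31 in PSMA6 to 206 in PSMB4, and over the 16 retained 19S subunits from 3.40 in PSMC6 to 135 in PSMD2. The constitutive catalytic subunits lay at 188 (PSMB5), 144 (PSMB6) and 115 (PSMB7) CPM per kilobase, and their immunoproteasome counterparts at 55.5 (PSMB8), 8.41 (PSMB9) and 18.7 (PSMB10). Each counterpart was below its constitutive subunit in all 4 libraries. The annotated length may not be the length of the transcript in these cells, and part of it may give no reads that can be placed.

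Part of the coding sequence of these genes occurs elsewhere in the genome. The reads were kept only where they had a single position, and many proteasome genes have processed pseudogenes. As a measure of this, every window of 75 bases, the read length, inside 1 coding exon was searched in GRCh37 with up to 2 mismatches. For 34 of the 50 genes all such windows had a single place, and for 5 genes fewer than 50% had one. PSMC1, a 19S ATPase with 13 named pseudogenes, had 0 of 597 coding windows with a single place. It had 8, 8, 3 and 3 counts in replicates 1 and 2 at 4 h and at 8 h, below the CPM filter. Over all its exons, however, 2620 of 3622 windows inside 1 exon had a single place. The cause of its low count was not tested.

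PSMC6 had 21 of 218 windows with a single place, PSMD4 had 68 of 450, PSMA6 had 117 of 239 and PSME2 had 25 of 54. PSMA6 and PSMC6, the lowest of the core and of the cap per kilobase of transcript, are both among them, whereas PSMB9, PSMD5 and PSMA5, at 8.41, 9.54 and 14.0 CPM per kilobase of transcript, had all their coding windows in a single place. The level was also taken per kilobase of single-place windows, counted over all exons. On that scale the core ran from 16.8 in PSMA5 to 473 in PSMB4, with a median of 216, and the cap from 7.86 in PSMD12 to 344 in PSMD2, with a median of 101. PSMA6 was then at 20.3 and PSMC6 at 10.1, each next to the lowest of its group, and PSMD4 moved from 18.6 to 201. The same windows apply to all 4 libraries, so the log2FC between the times compares the same sequence.

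**Figure D4:**
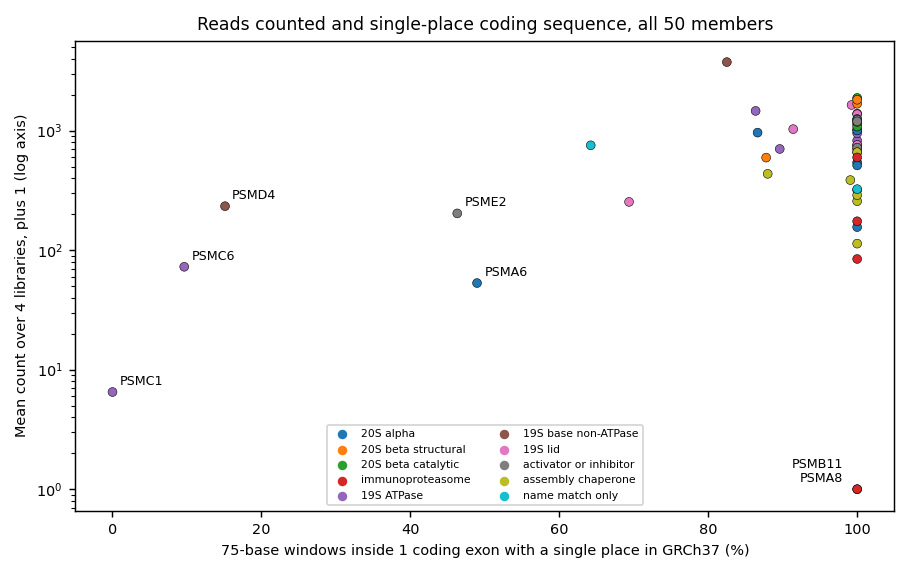
Mean count over the 4 libraries plus 1, on a log axis, against the percentage of 75-base windows inside 1 coding exon that have a single place in GRCh37, for all 50 genes coloured by class. PSMC1 is at 0% with the fewest reads among the genes that have any, and PSMA8 and PSMB11 are at 100% with 0 counts.

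The wider pathway was described with a list of 28 genes, all of which were retained, covering other components, the transcription factors of the subunit genes and the delivery of ubiquitinated proteins. Of these, 7 rose, 2 fell and 19 did not pass the test, so 32.1% were called, against the 38.8% of all retained genes. NFE2L1, the regulator of the subunit genes, was at 580 and 584 CPM at 4 h and at 676 and 677 CPM at 8 h, a log2FC of 0.22 (SE 0.068, adjusted p = 0.0169). NFE2L2, the related factor of the oxidative stress response, was at 218 and 195 CPM at 4 h and at 240 and 236 CPM at 8 h, a log2FC of 0.20 (SE 0.079, adjusted p = 0.0475). The times did not overlap for either factor.

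Neither call was firm. With the trend with mean log2-CPM corrected, the log2FC was 0.05 for NFE2L1 (adjusted p = 0.597) and 0.08 for NFE2L2 (adjusted p = 0.454), and with library size alone the adjusted p was 0.216 and 0.344. Without replicate 1 at 4 h the adjusted p was 0.152 for NFE2L1 and 0.0663 for NFE2L2, without replicate 2 at 4 h it was 0.116 and 0.409, and without replicate 1 at 8 h that of NFE2L2 was 0.0670. NFE2L2 also lost its call with DESeq2 (adjusted p = 0.104), a CPM above 2 (0.0538) and no CPM filter (0.0523). DDI2, the protease that activates NFE2L1, was at 4.31 and 6.90 CPM at 4 h and at 7.47 and 7.39 CPM at 8 h (log2FC 0.41, adjusted p = 0.2005). NGLY1, which removes sugars from NFE2L1, was at 37.7 and 37.4 CPM at 4 h and at 44.1 and 35.6 CPM at 8 h (log2FC 0.09, adjusted p = 0.579).

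Ubiquitin supply and delivery also held genes that rose. UBB, a polyubiquitin gene, was at 376 and 387 CPM at 4 h and at 485 and 453 CPM at 8 h (log2FC 0.30, SE 0.073, adjusted p = 0.00291). UBQLN2, which carries ubiquitinated proteins to the proteasome, was at 70.2 and 66.8 CPM at 4 h and at 82.5 and 93.8 CPM at 8 h (log2FC 0.36, SE 0.094, adjusted p = 0.00473). The times did not overlap for either gene, although UBB had only 88 of 613 coding windows with a single place. The call of UBB was lost with the trend corrected (adjusted p = 0.129) and without replicate 1 at 4 h (0.0672), and that of UBQLN2 without replicate 2 at 4 h (0.0711).

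AKIRIN2, which brings proteasomes into the nucleus, was at 45.8 and 46.1 CPM at 4 h and at 56.4 and 62.5 CPM at 8 h (log2FC 0.37, SE 0.102, adjusted p = 0.00726). The times did not overlap, and the call was lost without replicate 1 at 4 h (adjusted p = 0.0696) or replicate 2 at 4 h (0.0555). The 2 genes that fell act on ubiquitin at the particle. USP14, a deubiquitinase of the 19S cap, had a log2FC of -0.30 (adjusted p = 0.0118) and UBE3C, a ligase that extends chains there, one of -0.23 (adjusted p = 0.0258). Neither call held without replicate 1 at 4 h (adjusted p = 0.186 and 0.0995), and that of UBE3C held neither with DESeq2 (0.0792), nor without replicate 2 at 4 h (0.157) nor without replicate 1 at 8 h (0.0711). POMP, the chaperone that matures the core, was at 38.8 and 36.0 CPM at 4 h and at 39.0 and 25.7 CPM at 8 h (log2FC -0.20, adjusted p = 0.309), so that replicate 2 at 8 h alone was low.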

How the data were processed

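Total RNA of serum-starved RPE-1 cells was made into stranded poly(A) libraries, and 75 bases of 1 end were read. Mapping to hg19 was done by the authors with Bowtie 1.2.0 (version from the submitters' processing notes). They discarded reads with several positions and deposited the raw counts of each library, 4 in all, without normalization. The counting tool, annotation and use of strand are not given in the sources used here. Reads over splice junctions are lost by unspliced mapping, and genes with close copies lose reads to the position filter.

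From these counts, 12559 genes (CPM over 1 in 2 or more libraries) were retained, TMM normalization was applied and 8 h was compared with 4 h by the quasi-likelihood test of edgeR 4.0.16 (R 4.3.3) in a model with a term for time alone. p-values were adjusted by Benjamini-Hochberg over all retained genes. The standard error is the absolute log2FC divided by the square root of F. The biological coefficient of variation was 6.52%, and depth was 8064450 to 10324697 counts per library. Limits for a count of 0 use 3 counts of the library total and cover counting error only. Alternatives were Limma-Voom (limma 3.58.1), DESeq2 1.42.0, other scalings and filters, a loess correction of each library against mean log2-CPM, a replicate block, a test against an absolute log2FC of 0.2 (glmTreat) and leaving out each library.

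Values in every library are given for the catalytic subunits, the called genes (at most 8 in each direction), the median gene of each class, and, of the pathway list, NFE2L1, NFE2L2, DDI2, NGLY1, POMP and the 3 called genes with the largest absolute log2FC, except for items that are not reported here. The other called pathway genes were named after their values were seen. The genes and lists were chosen with earlier results of these data known. Genes were named by RefSeq and placed on GRCh37 by GENCODE.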

Additional observations from a re-analysis of the deposited data

How the results depend on the processing

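Of the 11 called genes among the 47, PSMC3IP, PSMD5, PSMG1 and PSME3 passed the test in all 12 alternatives that tested against a log2FC of 0. The other 7 lost their call in at least 1 of these. Of the 36 genes not called, 10 passed in at least 1 of these. The calls listed as lost for each gene leave out glmTreat, which called 0 genes higher and 3 lower. PSME3 was not among those 3. The genes higher at 8 h (4) numbered 2 with DESeq2, 1 with library size alone, 1 with the trend with mean log2-CPM corrected and 0 with glmTreat, and 0 to 5 without each library. The genes lower at 8 h (7) numbered 14, 11 and 3 with library size alone, the trend corrected and glmTreat. Library size alone moved the median log2FC of all retained genes to -0.108 and that of the 47 genes to -0.176, and relative to that shift the 47 genes lay at -0.068, as they did with TMM. Over all retained genes this scaling called 13.5% higher and 26.2% lower. Of the pathway genes, 7 higher became 4 with the trend corrected and 3 to 7 without each library, and 2 lower became 1 with DESeq2, 5 with library size alone, 5 with the trend corrected and 0 to 3 without each library.

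The replicate numbers were not shown to pair the libraries, since deviations of same-numbered libraries correlated at 0.048 over all retained genes, at 0.114 over those with a mean count of at least 100 and at 0.090 over the 47 genes, with only 2 pairs. With the replicate block, 5 of the 47 genes were higher, 10 were lower and 4 pathway genes were lower, while over all retained genes 22.5% were higher and 21.2% lower.

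The direction turned for 14 of the 47 genes and for NGLY1 and POMP, none of which passed the test. With library size alone the log2FC was -0.0975 for PSME4, -0.000863 for PSMA5, -0.0963 for PSMA6, -0.00686 for PSMB4, -0.0547 for PSMC4, -0.0143 for PSMD2, -0.00553 for PSMD9, -0.0702 for PSME1 and -0.0149 for NGLY1. With the trend corrected it was -0.0589 for PSME4, -0.0192 for PSMB4, -0.0396 for PSMC4, -0.0579 for PSMD2 and -0.0420 for PSME1, and with a CPM above 2 it was -0.000364 for PSME4. Without each library it ran from -0.0538 to 0.0639 for PSME4, -0.0287 to 0.280 for PSMA2, -0.333 to 0.0295 for PSMA3, -0.160 to 0.191 for PSMA6, -0.00764 to 0.205 for PSMB4, -0.0883 to 0.0232 for PSMC3, -0.00266 to 0.100 for PSMC4, -0.494 to 0.0457 for PSMC6, -0.252 to 0.0350 for PSMD12, -0.0574 to 0.118 for PSME1, -0.00862 to 0.218 for PSMD6, -0.543 to 0.0623 for POMP and -0.0766 to 0.229 for NGLY1. The causes were not tested. The smallest p of an exact permutation test of 2 libraries against 2 is 0.333, so the tests depend on edgeR's pooling of the spread over genes.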
